A study of Mus musculus with 27 samples.

Results

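The ventral wall of the optic stalk was compared with the axon-rich region beside it in Smarcc1-DCT-cKO mouse embryos at embryonic day 14. The optic stalk is the neural tube that joins the eye cup to the brain. It guides the axons of the retinal ganglion cells (RGCs), the output neurons of the retina, and its own cells turn into the astrocyte progenitors of the optic nerve. The comparison rests on 10 of the 27 libraries of the study, which are 5 ventral and 5 axon libraries of mutants, chosen by their labels. The same 2 regions of controls (4 ventral and 4 axon libraries) are given beside them.

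Mutant embryos carried loxP sites in both copies of Smarcc1 (Baf155 loxP/loxP) with Dct-Cre and the Z/EG reporter. Controls were littermates without Dct-Cre, all on a C57Bl6/J background. Cre driven by the pigment gene Dct acts in the pigmented and stalk lineages, whereas the cell bodies of the RGC axons lie in the retina. Each embryo gave a ventral and an axon piece, cut by laser from frozen sections of 12 µm. The axon region holds RGC axons together with the astrocyte progenitors that migrate between them, so it is not a pure axon preparation. Mutant embryos 1 to 3 belong to batch A and embryos 4 and 5 to batch B, which puts both regions of an embryo in the same batch.

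An axon holds no nucleus, and its RNA has to be carried there from the cell body. Transcripts known from axons of many neurons include those of ribosomal proteins, of the respiratory chain and of the cytoskeleton. Mitochondria travel along axons and bring the RNA of their own small genome. Cells of the stalk wall are dividing neuroepithelial progenitors with nuclei, in which long non-coding RNAs such as Malat1 stay.

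The libraries held 14.3 to 34.0 M counts (M, 1e6), and levels are given as CPM, the counts per M counts of a library, without correction for gene length. Mutant ventral libraries had 14095 ± 1049 genes with at least 1 count (SD, n = 5) and mutant axon libraries 10146 ± 796 (SD, n = 5). The groups did not overlap, with 12918 to 15086 genes against 9225 to 11358 (exact permutation p = 0.00794, two-sided, the smallest that 5 against 5 libraries allow; 0.00952 adjusted over 6 library measures). All 5 embryos had more genes in the ventral piece, and a sign-flip test over the 5 pairs gave an exact p of 0.0625, the smallest it allows. The 50 most abundant genes took 13.7% ± 0.37 of the ventral counts and 20.9% ± 2.34 of the axon counts (SD, n = 5 each). In all, 98 genes were counted in every ventral library and at 0 in every axon library, against 2 genes in the opposite direction.

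**Figure D1:**
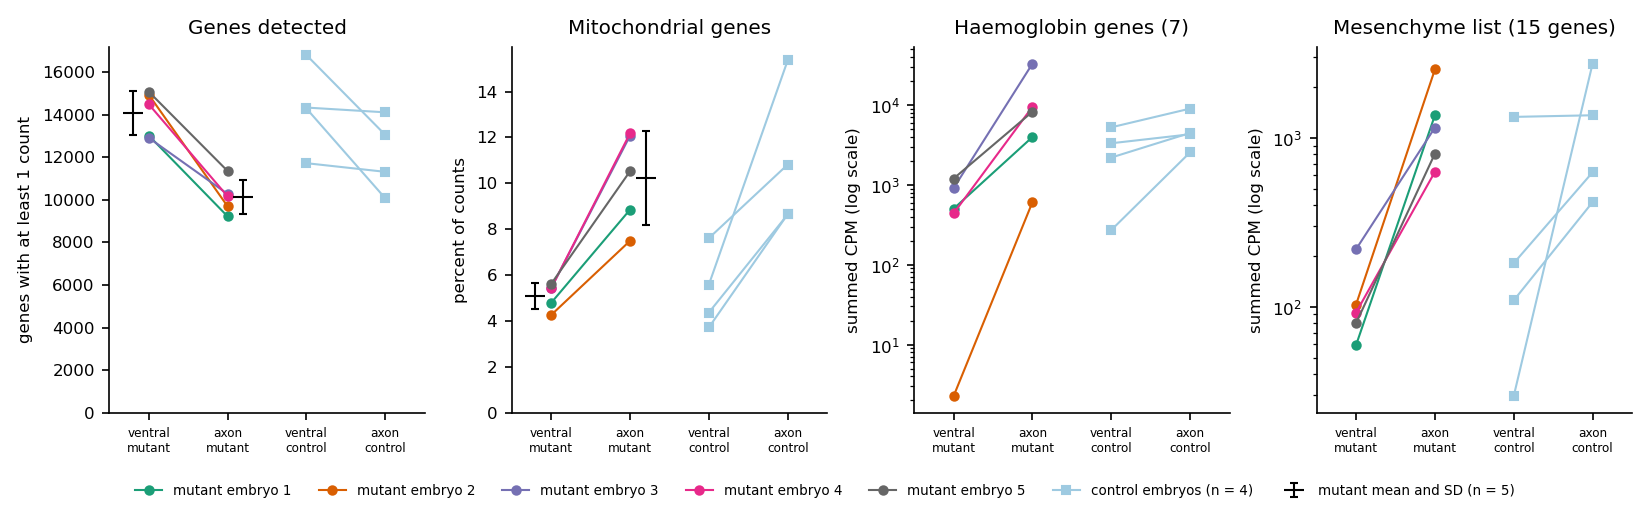
Library measures of the ventral and axon pieces, with a line joining the pieces of an embryo. The panels show genes with at least 1 count, the percent of counts in mitochondrial genes, and the summed CPM (log scale) of 7 haemoglobin genes and of a 15-gene mesenchyme list. In all 5 mutants the axon piece had fewer genes and higher levels on the other 3 measures. Bars in the first 2 panels are the mean and SD of the 5 mutants.

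The targeted gene was low in both mutant regions. Smarcc1 codes for a core structural member of SWI/SNF, a complex that remodels chromatin. It averaged 33.5 ± 19.6 CPM in ventral and 18.3 ± 18.2 CPM in axon mutants (SD, n = 5 each). Controls had 129.8 ± 56.9 CPM in ventral and 124.2 ± 88.7 CPM in axon libraries (SD, n = 4 each). Counts over the whole gene include exons outside the deleted part, and the 5 ventral mutants spanned 14.7 to 64.4 CPM. Between the mutant regions the Smarcc1 level did not pass the test (log2 fold change 1.34 ± 1.55, SE, edgeR adjusted p = 0.736).

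Of 15804 genes tested with the embryo as a block, 41 were called. A call needed an edgeR p below 0.05 after Benjamini-Hochberg adjustment and a log2 fold change of more than 0.58 in either direction. All 41 were lower in the ventral stalk and higher in the axon region (0.259% of the genes tested), and 0 were higher in the ventral stalk. Without the block the count was 70, of which 66 were lower (0.418%) and 4 higher (0.0253%), and 39 genes were called both ways. The 41 comprised 9 genes of mitochondrial DNA, 12 cytosolic ribosomal protein genes, 3 nuclear genes of the respiratory chain, 6 genes of axon and presynaptic lists, and 11 others. All 41 were counted in all 10 libraries and were lower in the ventral piece of all 5 embryos. In 36 of them the ventral and axon libraries did not overlap, a pattern seen for 133 of all genes tested (0.842%), while 409 genes were without overlap and higher in the ventral stalk (2.59%).

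The calls were restricted to abundant transcripts. All 41 averaged at least 268 CPM over the 10 libraries, whereas the median of the genes tested was 14.2 CPM. Of 83 genes averaging 1000 CPM or more, 25 were called, and of 894 genes between 200 and 1000 CPM, 16 were. The median log2 fold change over all genes was 1.46 on the ventral side with the block and 0.375 without it. With the block it was 2.83 among the 6986 genes under 10 CPM but -0.08 between 200 and 1000 CPM and -0.44 above that. At an unadjusted p under 0.05, 795 genes were higher in the ventral stalk (5.03%) and 310 lower (1.96%). A lower level in these tissue pieces can mean fewer cells of a type or less RNA per cell, which cannot be told apart.

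**Figure D2:**
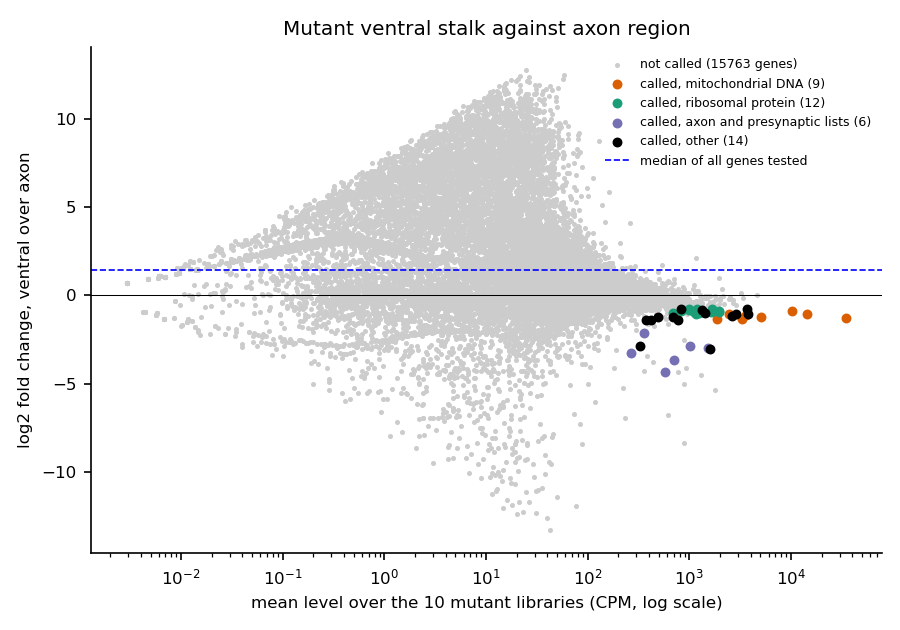
Each point is 1 of 15804 genes, with its mean level in the 10 mutant libraries (CPM, log scale) against its log2 fold change, ventral over axon. The 41 called genes, coloured by group, all lie below 0 and at 268 CPM or more, and the dashed line marks the median of 1.46.

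Mitochondrial RNA was the group with the largest share of calls. Of 10 genes of mitochondrial DNA tested, 9 were lower in the ventral stalk, and the tenth, mt-Nd3, was low in both regions. mt-Rnr2, the large ribosomal RNA of the mitochondrion, stood at 20000, 19100, 22700, 25900 and 21300 CPM in ventral mutants 1 to 5 and at 39000, 35800, 58500, 64300 and 40700 CPM in their axon pieces. The lowest axon library lay above the highest ventral library. Its mean of 21790 ± 2630 CPM in ventral against 47670 ± 12800 CPM in axon mutants (SD, n = 5 each) gave a log2 fold change of -1.28 ± 0.08 (SE, edgeR adjusted p = 0.00102). The small ribosomal RNA mt-Rnr1 differed by -1.35 ± 0.09 on this log2 scale (adjusted p = 0.00111). Among messenger RNAs, mt-Nd2, a subunit of complex I, differed by -1.33 ± 0.08, and mt-Co1, the core subunit of cytochrome oxidase, by -1.24 ± 0.12. mt-Cytb, of complex III, differed by -1.05 ± 0.08. The remaining 4 called genes, mt-Nd1, mt-Nd4, mt-Nd5 and mt-Nd6, had log2 fold changes of -0.89 to -1.14.

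Summed over all mitochondrial genes, the share of counts was 5.11% ± 0.57 in ventral and 10.2% ± 2.04 in axon mutants (SD, n = 5 each; exact permutation p = 0.00794, two-sided; 0.00952 adjusted over the 6 measures). Controls showed 5.32% ± 1.71 and 10.9% ± 3.17 (SD, n = 4 each). Nuclear genes of the respiratory chain moved less. Of 89 tested, 3 were lower in the ventral stalk, namely Ndufa1 (log2 fold change -1.21 ± 0.12), Cox6b1 (-0.83 ± 0.12) and Cox6c (-0.78 ± 0.11), and the median over the 89 was -0.22. The most abundant uncalled members, Cox6a1, Atp5b and Atp5j, did not pass the test.

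Genes of the translation machinery formed the largest called group. Of 82 cytosolic ribosomal protein genes tested, 12 were called as lower in the ventral stalk with the block and 20 without it. Among all 15804 genes these counts were 41 and 66. At an unadjusted p under 0.05, 64 of the 82 were lower (78.0%), beside 1.96% of all genes. The log2 fold change was negative in 78, beside 4201 of all genes. Their median was -0.62, beside -0.08 for all genes between 200 and 1000 CPM and -0.44 above that. Their summed level was 45100 to 56600 CPM in the ventral and 64500 to 70800 CPM in the axon libraries, without overlap. Rps29, of the small subunit, stood at 738, 969, 790, 881 and 758 CPM in ventral mutants 1 to 5 and at 1280, 1420, 1460, 1710 and 1560 CPM in the axon pieces. Its log2 fold change was -1.03 ± 0.11 (SE, edgeR adjusted p = 0.0128). Rplp0, Rpl41, Rpl13 and Rps19 were also called, with -0.92, -0.78, -0.95 and -1.02 on the log2 scale. Rps14, Rpl4 and Rps3, abundant members of the list, were not called. Many ribosomal protein genes have near-identical processed copies elsewhere in the genome, among which reads can be divided, and 66.2% of the exonic bases of the called gene Rpl35 are shared with a neighbour.

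Eef1a1, the elongation factor that brings aminoacyl-tRNA to the ribosome, was at 2920, 3210, 2300, 2350 and 2550 CPM in the ventral and at 5080, 5000, 5280, 4250 and 4450 CPM in the axon pieces of embryos 1 to 5. The regions did not overlap, and the log2 fold change was -1.04 ± 0.08 (SE, edgeR adjusted p = 0.00324). Eif3a, a subunit of the initiation factor that loads the small ribosomal subunit, averaged 253.8 ± 51.1 CPM in ventral and 582.1 ± 117 CPM in axon mutants (SD, n = 5 each; log2 fold change -1.38, edgeR adjusted p = 0.038).

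Messenger RNAs of ribosomal proteins and of elongation factors are known for a run of pyrimidines at the very start of the transcript, through which their translation is regulated together. Windows around the annotated start are shown for called genes with and without such a run, from RefSeq on GRCm38.p6, with 20 bases before and 10 bases from the start. Capitals mark the longest run of C and T that reaches within 5 bases of the start, on the coding strand. It covers the start base in Rps9, Rps27 and Eef1a1 but not in Rpl41 and Map1b.
Rps9, chr7:3704021-3704050, plus strand: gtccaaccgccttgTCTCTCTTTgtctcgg
Rps27, chr3:90213639-90213668, minus strand: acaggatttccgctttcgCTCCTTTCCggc
Eef1a1, chr9:78481715-78481744, minus strand: cgtgtgctggctccgCCCTCTTCCCgaggg
Rpl41, chr10:128549159-128549188, minus strand: gacgacacacgggccggCTCggaagtgacg
Map1b, chr13:99516593-99516622, minus strand: gcgtgcgccgggaggaggggggaCgcaggg
Rps9 and Rps27 have a run of 9 bases and Eef1a1 one of 10, while Rpl41 has 3 and the cytoskeletal gene Map1b 1. Among 62 ribosomal protein genes with a RefSeq start, 53.2% had such a run of at least 6 bases, against 24.8% of 10708 tested genes. Of the 23 of 32 called nuclear genes that had a RefSeq start, 34.8% held one, and of the 9 called ribosomal protein genes among them 33.3%. For a gene with several annotated starts the longest run was taken, and a counted run need not cover the start base. These shares are descriptions with no test, and annotated starts can be off by some bases.

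The 6 called genes of the axonal cytoskeleton, axonal transport and presynaptic lists had log2 fold changes of -2.12 to -4.32. Map1b, a microtubule-associated protein of growing axons, was at 604, 305, 301, 505 and 246 CPM in the ventral and at 2920, 2130, 3420, 1820 and 2880 CPM in the axon pieces of mutants 1 to 5. All axon libraries were at least 3 times the highest ventral one. The log2 fold change of Map1b was -2.98 ± 0.28 (SE, edgeR adjusted p = 0.00682). Nefm, the medium subunit of neurofilaments, stood at 212, 35.7, 129, 124 and 129 CPM in the ventral and at 803, 1520, 1760, 1060 and 1310 CPM in the axon pieces. Its log2 fold change was -3.68 ± 0.48 (SE, edgeR adjusted p = 0.0287), and a neighbouring gene overlaps 19.2% of its exonic bases. Kif1a, the kinesin that carries synaptic vesicle precursors, had 302.6 ± 169 CPM in ventral and 1713 ± 397 CPM in axon mutants (SD, n = 5 each; log2 fold change -2.87, edgeR adjusted p = 0.0169). Kif5b, the heavy chain of conventional kinesin, had 158 ± 99 and 553.7 ± 174 CPM (log2 fold change -2.12, adjusted p = 0.0197). Trp53inp2, whose long transcript is known to be abundant in axons of sympathetic neurons, stood at 81.4, 60.2, 66.1, 12.5 and 139 CPM in the ventral and at 803, 1320, 1980, 726 and 592 CPM in the axon pieces. At -4.32 ± 0.56 it had the largest fold change of the 41 called genes (adjusted p = 0.0287). Cplx2, complexin of the synaptic vesicle release machinery, averaged 57.2 ± 26.4 against 478.6 ± 256 CPM (log2 fold change -3.28, adjusted p = 0.0252).

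**Figure D3:**
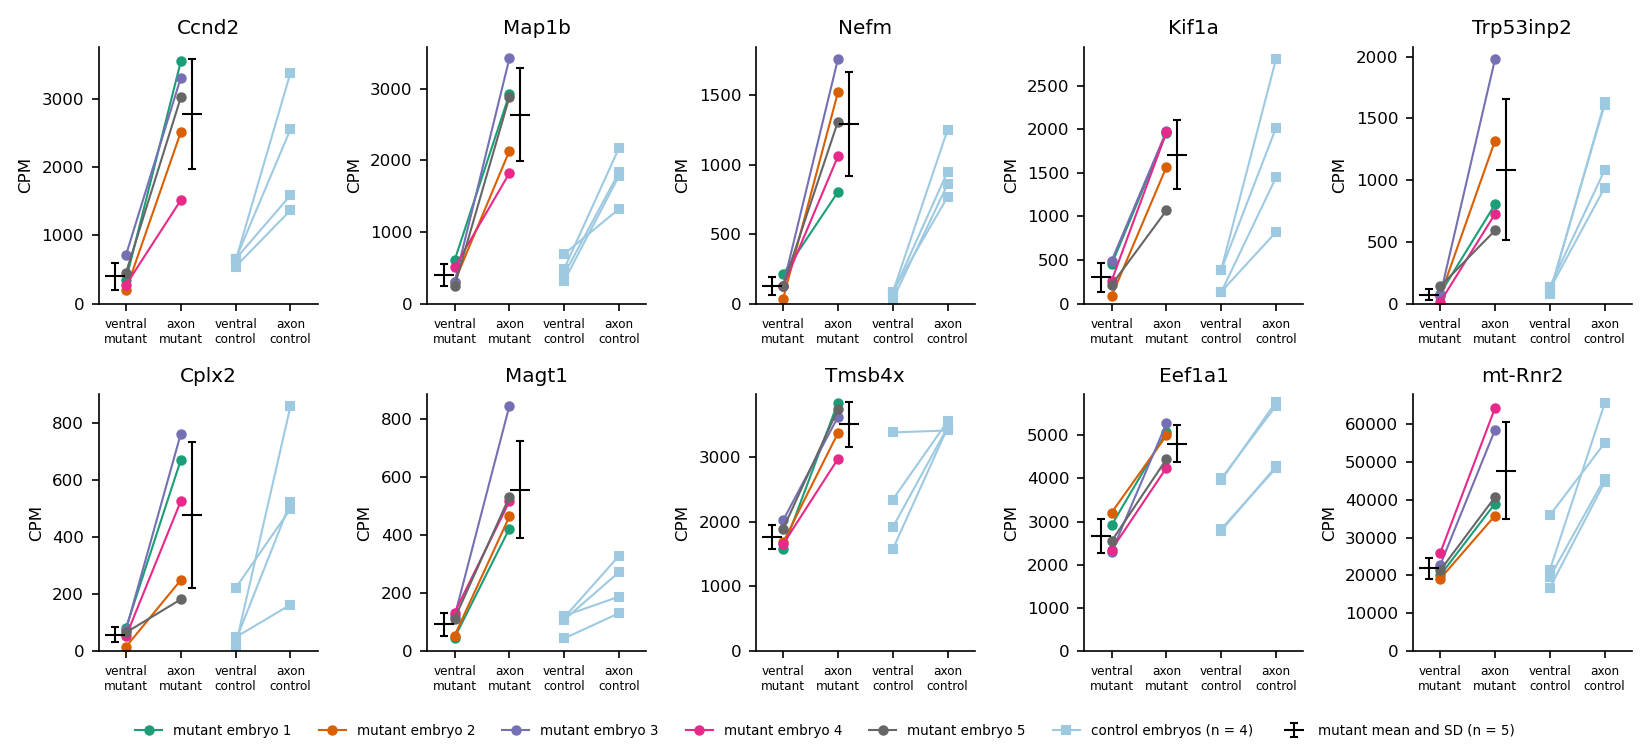
CPM of 10 called genes in each library, with a line joining the ventral and axon pieces of an embryo and bars for the mean and SD of the 5 mutants. In all 10 genes each mutant line goes up from ventral to axon, and control embryos are plotted at the right of each panel.

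These genes did not stand for their whole lists. Of 21 cytoskeletal genes tested, 2 were lower in the ventral stalk (Map1b and Nefm). Of 16 genes in the transport list it was 3 (Kif1a, Kif5b and Trp53inp2), and of 14 presynaptic genes 1 (Cplx2). Trp53inp2 is in the transport list as an axon-rich transcript and is not a transport gene. It averaged 1083 CPM in axon mutants, where the sum of the list averaged 4620 CPM. The medians of the lists were -0.52, 0.13 and 2.75, beside 1.46 for all genes. Tuba1a, the main tubulin of young neurons, averaged 852.9 against 1208 CPM (log2 fold change -0.72, edgeR adjusted p = 0.304), and Kif5c, a neuronal kinesin, 31.6 against 409.2 CPM without overlap (log2 fold change -5.25, adjusted p = 0.227). Tubb3, a tubulin of neurons, was at 0 in 4 of the 5 axon libraries, and Syt1, a vesicle calcium sensor, was also at 0 in 4 of them. Summed over the lists, the axon libraries were higher in all 5 embryos, with 5100 to 7950 CPM against 1800 to 2680 CPM for the cytoskeleton and 3200 to 6420 against 955 to 1590 CPM for transport. In the axon libraries Gap43, a growth-cone protein, averaged 118.6 CPM against 17.7 CPM in ventral mutants, Nefl, the light neurofilament subunit, 39.1 against 3.95 CPM, and Stmn2, a microtubule regulator of neurons, 84.7 against 26.4 CPM, none of them called. Map2, Tagln3, Crmp1 and Stmn4 of the cytoskeletal list went the other way, and none of them was called. Map2 averaged 18.97 CPM in ventral and 1.017 CPM in axon mutants without overlap, and Tagln3 45.79 and 0.3944 CPM. Of the 21 cytoskeletal genes 14 had a negative log2 fold change and 7 a positive one.

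Genes of RGC identity were low or uneven in these libraries. Of the 15 genes in the list of RGC identity, 11 passed the filter on low counts and 0 were called. The transcription factors Pou4f1 and Isl1 averaged 1.69 and 0.73 CPM in ventral and 1.18 and 0.08 CPM in axon mutants. Sncg, a synuclein of RGCs found also in their axons, was at 22.8 ± 14 CPM in ventral and 343.3 ± 221 CPM in axon mutants (SD, n = 5 each), without overlap (log2 fold change -4.09, edgeR adjusted p = 0.573). Rbpms, an RNA-binding protein of RGCs, had 31.4 and 23.2 CPM. Ebf1, a transcription factor of RGCs and other cells, was at 0.0836 CPM in ventral and 16.4 CPM in axon mutants without overlap, and Irx2 at 0 and 16.4 CPM, with 3 of 5 axon libraries at 0. Atoh7, the factor that starts RGC formation, averaged 42.5 CPM in ventral mutants, where 3 of 5 libraries were at 0, and was at 0 in all 5 axon mutants.

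Among the other called genes, Ccnd2 and Magt1 had the largest fold changes. Ccnd2, the D-type cyclin that drives cells from G1 into S phase, was at 353, 202, 717, 276 and 455 CPM in the ventral and at 3560, 2520, 3320, 1520 and 3030 CPM in the axon pieces of mutants 1 to 5. The lowest axon library was above all ventral ones, and the log2 fold change of Ccnd2 was -3.06 ± 0.21 (SE, edgeR adjusted p = 0.00151), with 7.86% of its exonic bases shared. Genes of the cell cycle in general did not follow it. Of 19 proliferation genes tested, 0 were called, Top2a and Cdk1 averaged 765.2 and 661.4 CPM in ventral and 757.2 and 593.8 CPM in axon mutants, and Mki67, the proliferation marker Ki-67, was higher in the ventral libraries (388.2 against 158.7 CPM, without overlap) but was not called (adjusted p = 0.573). Ccnd1, the related cyclin, averaged 276.8 ± 316 and 498 ± 156 CPM (log2 fold change -1.63, adjusted p = 0.573).

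Magt1, a magnesium transporter that also serves the oligosaccharyl transferase, was at 45.6, 52.9, 119, 132 and 111 CPM in the ventral and at 422, 464, 846, 516 and 532 CPM in the axon pieces. The regions were far apart, with a log2 fold change of -2.87 ± 0.26 (SE, edgeR adjusted p = 0.00647). Tmsb4x and Tmsb10, thymosins that bind actin monomers, differed by -1.18 ± 0.07 and -1.42 ± 0.14 on the log2 scale (adjusted p = 0.00102 and 0.00751). Tmsb4x was 1580 to 2020 CPM in the ventral and 2970 to 3840 CPM in the axon libraries. Ftl1 and Fth1, both subunits of the iron store ferritin, differed by -1.08 and -0.99 (adjusted p = 0.0195 each). For Ftl1, 34.6% of its exonic bases are shared with a neighbour. Hsp90ab1, a cytosolic chaperone, differed by -0.79, Ctnnb1, the adhesion and Wnt signalling protein beta-catenin, by -1.23, and the imprinted non-coding RNA H19 by -1.37.

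In the main fit, edgeR with the block, no gene was called as higher in the ventral stalk. Other fits with the embryos paired called 1 (newer edgeR method), 12 (all 15 mutant libraries), 207 (limma voom) and 2485 (DESeq2). The following are therefore levels and not changes. By smallest p these were Lrp2, Kpna2, Malat1, Gja1, Ptcd2, Thbs1, Rsrp1 and Id2. Gja1, the gap junction protein connexin 43 of progenitors and astrocytes, stood at 1010, 548, 1240, 631 and 727 CPM in the ventral and at 411, 93, 123, 295 and 304 CPM in the axon pieces of embryos 1 to 5. The groups did not overlap, yet the log2 fold change of Gja1 of 1.71 ± 0.36 had an edgeR adjusted p of 0.241. Id2, an inhibitor of basic helix-loop-helix factors, had 290 to 467 CPM against 51.7 to 214 CPM (log2 fold change 1.62, adjusted p = 0.32). Kpna2, an importin of the nuclear pore route, had 404 to 1030 CPM against 67.5 to 385 CPM (1.35, adjusted p = 0.198). Lrp2, the endocytic receptor megalin, was at 88.1 to 164 CPM in ventral mutants and at 0 in 4 axon mutants, with 1.24 CPM in the fifth (adjusted p = 0.179). Ptcd2, a mitochondrial RNA-processing factor, was at 35.3 to 98.7 CPM in the ventral libraries and at 0 in 3 axon libraries (adjusted p = 0.279, and 0.0345 without the block). Zdhhc13, Polr3c and H2-K1 were the other genes called as higher without the block.

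RNAs kept in the nucleus were higher in the ventral libraries on average, with 0 of 8 called. Malat1 averaged 2690 ± 1390 CPM in ventral and 1185 ± 621 CPM in axon mutants (SD, n = 5 each), was higher in the ventral piece of all 5 embryos, and overlapped between regions (log2 fold change 1.01 ± 0.21, SE, edgeR adjusted p = 0.231). Meg3 averaged 246.8 against 96.2 CPM and Kcnq1ot1 264.1 against 114.8 CPM. All 8 had a positive log2 fold change, beside 11600 of all 15804 genes, and their median was 4.01.

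Genes of stalk cells and astrocyte progenitors did not behave alike. Of 18 tested, 0 were called with the block and 1, Nes, without it. Their summed level was 3040 to 5430 CPM in the ventral and 3680 to 5560 CPM in the axon libraries, which overlap. Vim and Fabp7, an intermediate filament and a lipid carrier of radial glia, averaged 1975 and 723.2 CPM in ventral and 2053 and 829.4 CPM in axon mutants. Nes, the intermediate filament nestin of neural progenitors, was at 175, 59.6, 127, 14.6 and 72.1 CPM in the ventral and at 475, 735, 1060, 536 and 591 CPM in the axon pieces, without overlap. The log2 fold change of Nes was -3.45 ± 0.52 (SE, edgeR adjusted p = 0.0582 with the block and 0.0114 without it). Vax2, a ventral eye factor, averaged 25.7 ± 18.6 CPM in ventral mutants and was at 0 in all 5 axon mutants (adjusted p = 0.573). Vax1, Cd44 and Nr2e1 were higher in ventral mutants without overlap, with 8.40, 15.5 and 57.4 CPM against 0.126, 0 and 7.75 CPM, and none of them was called.

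Among the 13 genes that the study discusses, Nefm was the 1 called. The study picked part of them on these samples, so their number is not independent evidence. By exact permutation tests of log2(CPM + 1), 6 of the 13 had an unadjusted p under 0.05. Otx2, a factor of early pigment epithelium, was at 56.8, 69.2, 86.9, 51 and 17.6 CPM in ventral and at 0, 4.69, 0, 0.233 and 0 CPM in axon mutants. The groups did not overlap (exact permutation p = 0.00794), while the edgeR adjusted p was 0.573. Pax6, a factor of eye progenitors, had 56.1 to 193 CPM in ventral and 0 to 80.5 CPM in axon libraries (exact permutation p = 0.0159). Mitf, the master factor of pigment cells, had 74.7 to 178 against 4.96 to 166 CPM (exact permutation p = 0.0317), and Sox9, a factor of astrocyte progenitors, 178 to 491 against 32.8 to 351 CPM (exact permutation p = 0.0397). Mmp14, a membrane-bound matrix protease, went the other way with 19.7 to 113 against 96.4 to 425 CPM (exact permutation p = 0.0159). Pax2 and Sox2, which mark stalk and progenitor cells, averaged 26.7 ± 22.9 and 116.4 ± 23.9 CPM in ventral and 10.9 ± 7.03 and 97.3 ± 94.9 CPM in axon mutants (exact permutation p = 0.183 and 0.254). Hes1, a Notch target, had p = 0.0635 by the same exact test, and Smarcc1, Smarcc2, Smarca4 and Adam15 had 0.143, 0.175, 0.786 and 1. Over the 5 pairs the sign-flip test cannot go below 0.0625.

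Pigment and pigment epithelium genes were higher in the ventral libraries as levels, with 0 of 12 and 0 of 8 called. Summed melanin genes were 815 to 4830 CPM in the ventral and 170 to 1570 CPM in the axon libraries, and summed RPE genes 368 to 552 against 128 to 238 CPM. Pmel, the fibril protein of the melanosome, averaged 1654 ± 1090 against 662.9 ± 547 CPM (SD, n = 5 each; log2 fold change 2.10, edgeR adjusted p = 0.573). The ventral piece was the higher one in all 5 embryos for both sums. All 12 melanin and all 8 RPE genes tested had a positive log2 fold change, beside 11600 of all 15804 genes. Of these, 4 melanin and 3 RPE genes were at 0 in all axon libraries, as were 2640 of all 15804 genes.

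Signals and receptors of the stalk gave 0 calls. Of 11 Hedgehog pathway genes, 14 guidance cues and 21 guidance receptors and adhesion molecules tested, 0 were called, with medians of 3.24, 2.48 and 1.59 beside 1.46 for all genes. Gli3 and Ptch1, the repressor-forming effector and the receptor of Hedgehog signalling, averaged 163.1 and 127.6 CPM in ventral and 24.9 and 57.6 CPM in axon mutants, both without overlap. Ntn1 and Slit2, a guidance cue at the optic disc and a repellent along the tract, averaged 363.4 and 310.7 CPM against 200.3 and 111.5 CPM. Ncam1, an adhesion molecule of axons and glia, had 119.1 ± 88.5 against 40.4 ± 32.8 CPM. The FGF response (12 tested), Wnt (14), Notch and proneural (16), SWI/SNF (21), basement membrane (12), neural matrix (13), retinal progenitor (10) and immediate early (8) lists also had 0 calls with the block, and without it Sparc of the neural matrix list was called as lower. Ventral mutant 2 stood apart in summed retinal progenitor genes, with 2590 CPM against 599 to 811 CPM in the other ventral mutants. Whether this piece held retinal tissue was not tested.

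**Figure D4:**
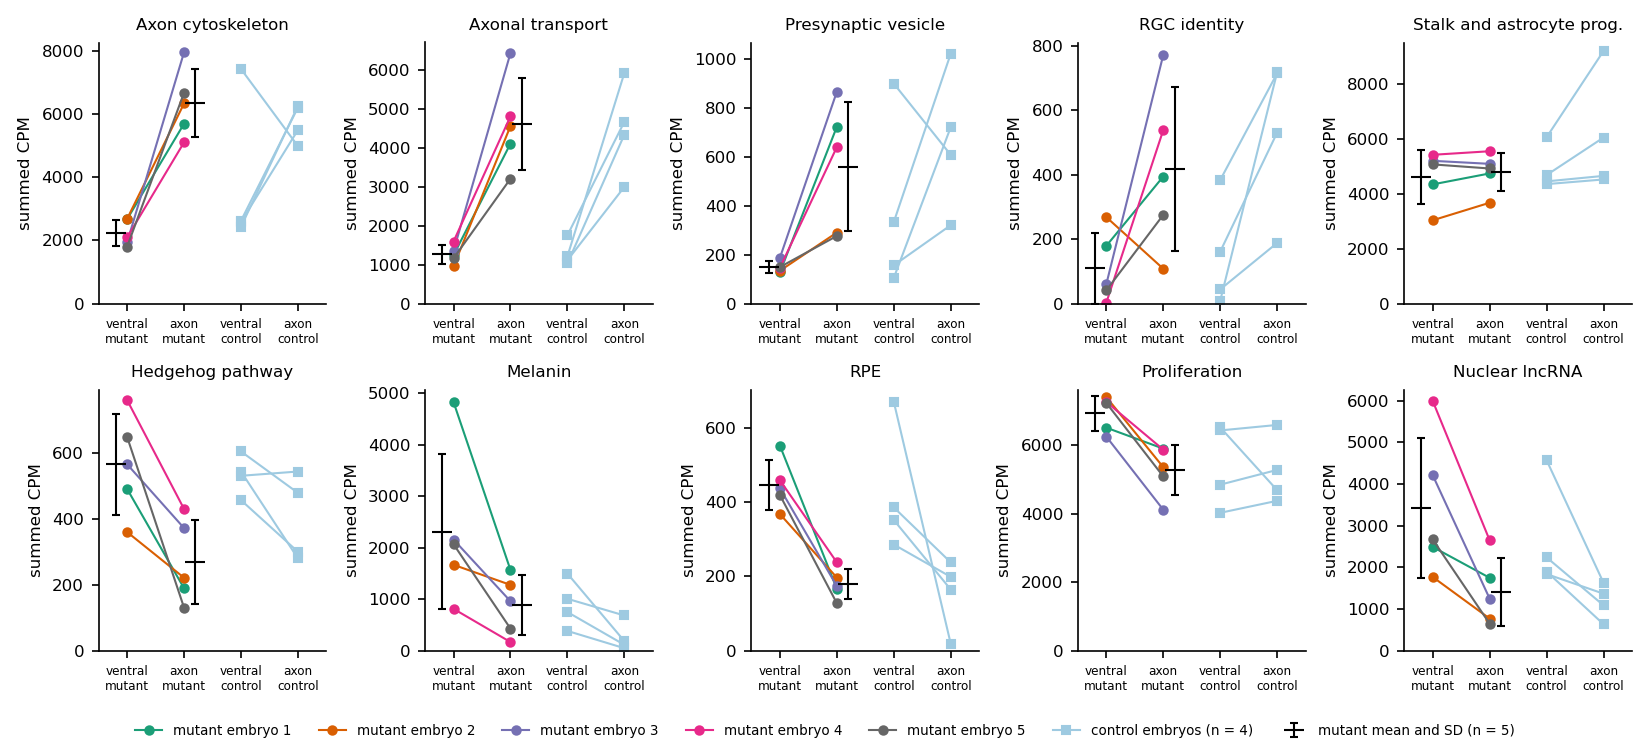
Summed CPM of 10 gene lists in each library, with a line joining the ventral and axon pieces of an embryo and bars for the mean and SD of the 5 mutants. The lists of the axon cytoskeleton, axonal transport and presynaptic vesicles are higher in the axon piece of every mutant, the stalk and astrocyte progenitor list overlaps, and the Hedgehog, melanin, RPE, proliferation and nuclear RNA lists are higher in the ventral piece of every mutant.

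Markers of other tissues also differed between the pieces. Haemoglobin genes, which mark red blood cells, summed to 503, 2.27, 912, 440 and 1200 CPM in the ventral and to 3980, 609, 33000, 9510 and 8250 CPM in the axon pieces of embryos 1 to 5. All 7 were lower in the ventral libraries with an unadjusted p under 0.05, beside 1.96% of all genes tested. Yet 0 of them were called (Hba-a1, log2 fold change -4.50 ± 0.73, SE, edgeR adjusted p = 0.0845). The mesenchyme list summed to 59.3 to 219 CPM in the ventral and to 629 to 2540 CPM in the axon libraries. Of its 15 genes 14 had a negative log2 fold change, beside 4201 of all 15804 genes. In the list 4 were lower without overlap, beside 0.842% of all genes, and 0 were called. Col3a1, a fibrillar collagen, averaged 18.1 ± 27.8 against 448.5 ± 221 CPM, and Dcn, the matrix proteoglycan decorin, 0.545 against 153.7 CPM. Tbx18, Foxc1 and Twist1, transcription factors of the mesenchyme around the eye, were at 0 in all ventral libraries. The endothelial list had 16.9 to 115 CPM in the ventral and 37.7 to 484 CPM in the axon libraries, with 0 of 10 called. Of 11 myeloid genes tested 0 were called, and their sum was at most 245 CPM. Of 5 Schwann cell and neural crest genes and of 3 oligodendrocyte precursor genes tested, 0 were called. The part of blood and mesenchyme in the axon-high transcripts was not tested.

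Control embryos gave the same contrast in separate libraries. Ventral control 2 stood apart in summed cytoskeletal genes, with 7420 CPM against 2430 to 2620 CPM in the other control ventral libraries, and ventral control 3 in summed mesenchyme genes, with 1330 CPM against 29.6 to 181 CPM. Without either of these embryos the count of calls in controls stayed at 0. Fewer embryos make calls less likely, so this cannot show how much either embryo weighed. With the block 0 of 15839 genes were called (0%), 418 had an unadjusted p under 0.05, and without the block 5 were called, all lower in the ventral stalk, while DESeq2 called 999. All 41 genes called in mutants had a negative log2 fold change in controls, from -0.19 to -4.13. In 39 of them the unadjusted p in controls was under 0.05, beside 1.51% of all genes tested in controls for that direction and 118 of the 685 uncalled genes that averaged at least 268 CPM (17.2%). The exceptions were Cox6c (control log2 fold change -0.54, edgeR unadjusted p = 0.0538) and Ctnnb1 (-0.19, unadjusted p = 0.439). In 21 of the 41 the control libraries did not overlap either, beside 1.11% of all genes. The median log2 fold change of the 41 was -1.08 in mutants and -1.02 in controls.

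The difference between the genotypes was tested as an interaction of region and genotype. Of 16277 genes, 0 were called (0%) by edgeR with the block or without it, 374 had an unadjusted p under 0.05 with the block, and DESeq2 called 1038. Among the 41 genes, 5 had an unadjusted interaction p under 0.05 (Ccnd2, Eef1a1, Magt1, Ndufa1 and Ctnnb1), all with the larger difference in mutants, beside 0.485% of all genes in that direction and 17 of the 685 uncalled genes of at least 268 CPM. The 41 were chosen by the mutant contrast, which is part of the interaction, so this count is a description. The smallest of these was for Ctnnb1, at -1.03 ± 0.27 on the log2 scale (SE, edgeR unadjusted p = 0.00223, adjusted p = 1). Ctnnb1 averaged 319.8 ± 69.1 and 658.3 ± 114 CPM in ventral and axon mutants (SD, n = 5 each) and 472.4 ± 254 and 455.4 ± 167 CPM in controls (SD, n = 4 each). Magt1 averaged 92.1 and 555.9 CPM in mutants and 96.5 and 229.3 CPM in controls. Ccnd2 averaged 400.5 and 2789 CPM in mutants and 620.9 and 2226 CPM in controls. For Nefm the averages were 125.9 and 1290 CPM in mutants and 66.3 and 956.9 CPM in controls (interaction 0.48, unadjusted p = 0.445), and for Trp53inp2 71.8 and 1083 CPM against 105.9 and 1313 CPM (interaction -0.49, unadjusted p = 0.474).

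**Figure D5:**
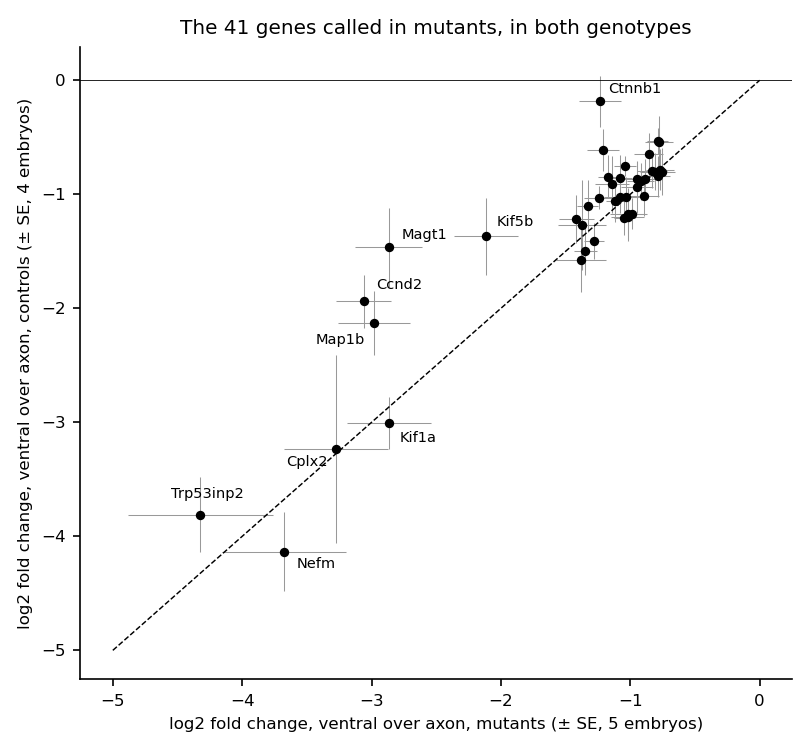
Log2 fold change, ventral over axon, of the 41 genes called in mutants, in mutants (horizontal axis) and controls (vertical axis), each with its SE. All points lie below 0 on both axes, and the dashed line marks equal values. For 24 of the 41 the interaction was toward the larger difference in mutants, among them Ctnnb1, Magt1, Ccnd2 and Kif5b. Beside this, it was negative for 305 of 685 uncalled genes of at least 268 CPM and for 6145 of 15366 genes tested in both genotypes. The median interaction of the 41 was -0.03, and they were chosen by the mutant contrast.

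Within batches the 41 genes did not keep their calls. With 3 embryos (batch A) and with 2 embryos (batch B) alone, 0 genes were called, with 340 and 225 genes at an unadjusted p under 0.05. Each of the 41 genes stayed lower in the ventral stalk in both batches. All 41 were lower in every embryo, so this direction could hardly come out otherwise and is no separate check. Leaving out 1 embryo at a time left 10 to 16 calls, with embryos 3 and 4 each bringing the count to 10, and no gene was called as higher in the ventral stalk.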

How the data were processed

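Laser-captured pieces were profiled by Geo-seq, with cDNA amplified by PCR and no molecular identifiers, so errors of counting understate those of molecules. The deposited table gives raw counts of reads for each gene, obtained by the authors through Seq2Science (STAR on mm10, HTSeq). Versions, annotation and strand setting are not given in the sources used here, so exonic bases shared with a neighbour on either strand are stated. Of 55487 gene identifiers, 55227 matched GENCODE M21 for symbols. The deposited counts (14.3 to 34.0 M per library, where 3 counts equal 0.0883 to 0.209 CPM) were used unscaled, and 0 pairs of libraries were identical.

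Genes counted over 10 times in 3 or more of all 27 libraries entered edgeR 4.0.16 in R 4.3.3 (quasi-likelihood F-test, robust, legacy setting, TMM), with the embryo as a block. Standard errors were derived from the fold change and F. The replicate number was taken as the embryo because the study took its pieces of each region from each embryo. In all 9 embryos the libraries fell on the same side in Xist against Y-linked counts. Mutants 1 and 5 were on the Xist side, and the other mutants and all controls on the Y side. The check therefore cannot tell embryos of the same side apart, and sex differs in part between the genotypes. Deviations of same-numbered libraries correlated by only -0.002 to 0.051 in mutants. Single values were compared by exact permutation tests (scipy). DESeq2 1.42.0 and limma 3.58.1 served as alternatives.

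On simulated data of this design, edgeR called 0.5%, 7% and 40.5% of 200 genes changed 2-, 4- and 16-fold, and 2 to 3 unchanged genes. DESeq2 with the block called 939 to 962 unchanged genes. The simulation gave each gene a single mean level with no difference between embryos, and changed only genes above a set level. It therefore cannot tell whether calls in the real data are right.

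The comparison, lists and tests were chosen with earlier results of these data known. Named genes are the 13 study genes, up to 12 called genes by smallest p in a direction (filled up to 8 by p), and per list up to 5 called and 3 of highest level. Other genes named (for example Ctnnb1, Mki67, Ccnd1, Vax1, Vax2, Cd44, Nr2e1, Ebf1, Irx2, Gap43, Nefl, Stmn2, Tubb3, Pou4f1, Isl1, Dcn, Tbx18, Foxc1, Twist1 and the remaining called genes) were chosen after their values were seen. RefSeq starts came from promoter sequences on GRCm38.p6. Dorsal libraries entered only the filter and the fit of all 15 mutant libraries.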

Additional observations from a re-analysis of the deposited data

Results flagged for a closer look

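Of 134 groups of 5 libraries tested (61 named genes and 6 library measures in each region), 10 had a library far from the others of its group, judged by the gap to its nearest neighbour as a share of the range of log2(CPM + 1). Chance flags about 1 in 20 groups if values are normally distributed. That rate does not hold for groups mostly at 0, where a lone value above 0 always gives a gap of 1. In axon mutants, Smarca4 was at 33.5 CPM in embryo 2 against 198 to 350 in the others (gap 0.754 of the range), Otx2 at 4.69 CPM in embryo 2 against 0 to 0.233 (0.879), Sox2 at 266 CPM in embryo 4 against 40.3 to 68.3 (0.722) and Hes1 at 87.3 CPM in embryo 2 against 163 to 209 (0.717). Lrp2 at 1.24 CPM in embryo 2 and Thbs1 at 0.0572 CPM in embryo 1 were the only values above 0 in their axon groups (gap 1 each). In ventral mutants, Mmp14 was at 19.7 CPM in embryo 3 against 74.1 to 113 (0.757), Adam15 at 45.9 CPM in embryo 3 and 0 in the others (1), mt-Rnr1 at 2600 CPM in embryo 3 against 1770 to 1910 (0.806), and Cplx2 at 14.4 CPM in embryo 2 against 51.7 to 81 (0.736). Of the 10, 4 lie in the axon and 1 in the ventral piece of embryo 2.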

How the results depend on the processing

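The main count of 41 calls (all lower in the ventral stalk) depended on the fit. It was 70 with no replicate block (39 shared with the 41), 72 with batch in place of the block, 70 with the newer edgeR method, 19 with library totals as the only scaling, 27 with mitochondrial genes left out and 84 in all 15 mutant libraries. Of these calls, 4, 2, 1, 0, 0 and 12 in this order were higher in the ventral stalk. DESeq2 gave 2705 calls with embryos paired (8 shared) and 1352 without the pairing, and limma voom 325. The cause of this difference between the tools was not tested. Batch A alone and batch B alone gave 0, with fewer samples, and leaving out 1 embryo gave 10 to 16. RLE scaling, upper-quartile scaling, 3 other filters on low counts, a filter on the 10 libraries and leaving out haemoglobin genes (the last 2 chosen after seeing the data) gave 39 to 58. In controls the count of 0 became 5 with no replicate block and 999 with DESeq2, and the interaction count of 0 became 1038 with DESeq2. The control and interaction counts stayed at 0 when any embryo was left out, which is no separate check because fewer embryos make calls less likely.

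Of 61 named genes, 58 kept their sign in all alternatives. The uncalled Smarca4 (0.10) turned to -0.148 with no replicate block, -0.132 with batch, -0.091 with DESeq2 without pairing, -0.307 with limma voom, -0.026 with upper-quartile scaling, -0.043 with 15 libraries, -0.238 in batch B, -0.491 without embryo 2 and -0.049 without embryo 4, within a range of -0.491 to 0.57 when 1 embryo was left out. Sox2 (0.46) was -0.204 in batch B. Adam15 was 2.21 with no replicate block, 0.672 with batch, 2.236 with DESeq2 and 1.786 with the newer edgeR method. The number of study genes with an exact p under 0.05 was 2 to 6 without 1 embryo (2 without embryo 2 or 3 and 3 without embryo 5). The differences in genes detected and in the mitochondrial share kept their direction and stayed below the threshold of 0.05 without any 1 embryo. In both measures the regions did not overlap, so this could not come out otherwise and is no separate check.

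Scaling by library totals moved the median of all genes from 1.46 to 1.613, of genes of at least 10 CPM from 0.795 to 0.982, and of the neural matrix, oligodendrocyte precursor, immediate early and mitochondrial lists to 1.041, 1.032, 1.152 and -0.955. Upper-quartile scaling gave 0.685 for genes of at least 10 CPM and 0.817 for oligodendrocyte precursor genes. The basement membrane list had -0.15 with TMM and 0.038 with library totals. The median of all genes also depended on the fit, with 0.375 with no replicate block, 0.384 with DESeq2 without pairing, 0.468 with limma voom and with the newer edgeR method, 0.682 with batch and 0.902 with DESeq2 paired. In simulated data a 4-fold change was called for 7% of changed genes, and whether depth or spread between embryos sets this was not tested.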
